A study of Mus musculus with 9 samples.

Results

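The genes described here are 37 type I interferon stimulated genes, among them the transcription factor subunits STAT2 and IRF9 that drive the others. They were taken by gene symbol from a list of known interferon-stimulated genes and ISGF3 subunits. The rule reads no measured value, but the list was chosen with earlier results of these data known. Of the 37, 35 symbols are in the table of 34714 gene symbols and 34 had enough counts to be tested, among 18644 tested genes. Mx1 and Mx2 are not analysed here. Oas3 did not pass the filter on low counts, with 4, 6 and 0 counts in the naive libraries, 6, 39 and 9 in EAE and 0, 23 and 2 in treated EAE.

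RNA was sequenced from the cortex of 9 mouse samples in 3 groups of 3. One group was naive, one had EAE (experimental autoimmune encephalomyelitis, in which the immune system attacks brain and spinal cord, used to model multiple sclerosis), and one had EAE and was given Au18(L-NIBC)14, a gold nanocluster. The series title names the oligomerisation of ASC, an inflammasome adaptor, as the target of the compound, and the question put to these genes is how far EAE and the treatment moved them. The sources used here do not give strain, age, how EAE was induced, or the compound's dose, route, schedule or sampling day, and no further allele or agent is labelled. Brains carry the numbers 1 to 3 within a group, and nothing else says how the samples were taken, so the p-values measure only the spread between these samples.

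Type I interferons bind the receptor of IFNAR1 and IFNAR2, whose kinases JAK1 and TYK2 phosphorylate STAT proteins. STAT2 and IRF9 are subunits of the factor ISGF3, which binds interferon-stimulated response elements in promoters and switches on a broad set of antiviral genes. In brain, microglia, astrocytes, endothelium and neurons can all express such genes, and infiltrating immune cells do so as well.

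The promoters below show the response element as it occurs in members of the list. The pattern searched was the core of the element, GAAA and GAAA with any 2 bases between them, on both strands, in the 250 bases before each gene's start and 50 bases after it, as RefSeq gives them for GRCm38.p6. A promoter was found for 28 members, and 14 of these (50%) held the pattern, against 1079 of 27025 genes (3.99%) and 1131 of 32851 promoters (3.44%) in the whole table. A second pattern, TTC and GAA with any 3 bases between them, which STAT dimers bind, was in 6 of 28 members (21.4%) and in 9.55% of all genes. The 4 members with a match and the 1 without that had the smallest p in EAE against naive were taken for display, each with 250 bases before the start and 30 from it, 5′ to 3′ on the gene's strand. Capitals mark the matches.
Bst2, chr8:71537443-71537722, minus strand: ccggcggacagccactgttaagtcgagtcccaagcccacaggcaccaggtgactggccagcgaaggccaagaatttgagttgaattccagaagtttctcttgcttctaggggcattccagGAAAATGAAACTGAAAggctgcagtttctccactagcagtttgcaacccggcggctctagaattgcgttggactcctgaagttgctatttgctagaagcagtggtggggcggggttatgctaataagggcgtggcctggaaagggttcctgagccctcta
Ifitm3, chr7:141010715-141010994, minus strand: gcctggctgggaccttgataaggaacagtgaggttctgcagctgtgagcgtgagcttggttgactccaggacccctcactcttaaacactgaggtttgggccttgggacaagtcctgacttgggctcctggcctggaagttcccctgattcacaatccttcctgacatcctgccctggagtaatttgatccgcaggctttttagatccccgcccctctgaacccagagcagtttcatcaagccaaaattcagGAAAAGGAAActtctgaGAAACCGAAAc
Trim30a, chr7:104465164-104465443, minus strand: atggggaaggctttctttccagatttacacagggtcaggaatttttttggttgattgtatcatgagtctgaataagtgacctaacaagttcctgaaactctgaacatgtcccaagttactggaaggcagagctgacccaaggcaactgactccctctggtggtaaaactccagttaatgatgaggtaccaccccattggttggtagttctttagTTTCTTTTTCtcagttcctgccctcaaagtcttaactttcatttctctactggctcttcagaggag
Ifit1, chr19:34640639-34640918, plus strand: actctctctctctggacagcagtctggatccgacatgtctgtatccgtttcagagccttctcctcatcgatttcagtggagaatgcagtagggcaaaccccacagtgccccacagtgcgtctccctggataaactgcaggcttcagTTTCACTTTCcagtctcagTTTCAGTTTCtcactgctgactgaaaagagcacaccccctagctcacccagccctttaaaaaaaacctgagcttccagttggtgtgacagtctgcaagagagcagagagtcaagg
Lgals3bp, chr11:118401930-118402209, minus strand: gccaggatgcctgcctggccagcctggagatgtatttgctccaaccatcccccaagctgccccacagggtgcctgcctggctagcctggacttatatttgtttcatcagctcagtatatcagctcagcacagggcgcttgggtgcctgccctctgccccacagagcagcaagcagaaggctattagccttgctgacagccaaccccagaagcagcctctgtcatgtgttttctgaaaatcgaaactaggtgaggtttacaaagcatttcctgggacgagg
Bst2 has 2 overlapping matches, which begin 130 and 124 bases before the start, and Ifit1 has 2 on the other strand, 104 and 85 bases before it. In the printed promoter of Trim30a, a gene with a second start in RefSeq, the match is also on the other strand and begins 36 bases before the start, and in Ifitm3 both lie 2 and 19 bases after it. Isg15 holds 3 matches and is not printed. Lgals3bp has none in this window. The 13 tested members with a match had a median log2 fold change of 0.94 in EAE against naive, the 14 without one 0.64, and the 7 with no promoter there 1.1. A match is a description of the letters and not evidence of binding.

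The smallest library, naive replicate 2, held 26972179 counts and the largest, naive replicate 1, 45243553. The summed level of 9 cortical neuron markers was between 7632 and 9085 CPM (counts relative to the library total, scaled with TMM factors) in every library. EAE replicate 1 stood apart by its choroid plexus markers, which summed to 895.2 CPM over 6 genes, against 7.53 to 102.8 CPM in the other 8 libraries. Results for EAE are therefore also given without it, and without EAE replicate 2, in which the interferon-stimulated genes were highest.

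In EAE against naive cortex, the interferon-stimulated genes had a median log2 fold change of 0.87, and 32 of the 34 had a value above 0, where all tested genes had a median of -0.01 and 49% above 0. Fold changes and p-values are from edgeR's quasi-likelihood test over all 9 libraries, adjusted by Benjamini and Hochberg over all tested genes. None of the 34 passed at an adjusted p of 0.05, while 0.987% of all tested genes did, 0.735% as higher. The lowest edgeR adjusted p among them was 0.0663, for Ifi27. At an unadjusted p under 0.05, 17 were higher and 0 lower, with a background of 9.42% higher, 6.97% lower and 16.4% in either direction. DESeq2 called 8 higher and 0 lower, against 3.75% of genes higher and 1.84% lower: Bst2, Ifi27, Irf7, Lgals3bp, Ifitm3, Trim25, Parp14 and Parp9, with DESeq2 adjusted p from 0.00468 for Bst2 to 0.0395 for Parp9. Whether more expressing cells or more RNA per cell underlies a difference cannot be told apart in bulk tissue.

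The spread between the EAE libraries was wide. Measured as the difference in log2 CPM from the naive mean, the median of the 34 genes was -0.11 in EAE replicate 1, 1.69 in EAE replicate 2 and 0.54 in EAE replicate 3. The same median was -0.02, 0.00 and 0.02 in the naive libraries. EAE replicate 2 was the highest of the 9 libraries for 33 of the 34 genes, and 15.9% of all tested genes were highest there. The exception was Herc6, highest in treated replicate 3. EAE replicate 3 was second highest for 18 genes, against 12.5% of all genes, and EAE replicates 2 and 3 held the top places in that order for the same 18, against 4.18%. In 32 genes the EAE libraries were ordered 2, 3, 1, as in 15.8% of all genes. EAE replicate 1 was above every naive library for 9 genes, where 28.3% of all genes were, and below every naive library for 14, where 28.1% were. EAE replicate 2 was above every naive library for 33 (30.6% of all genes) and EAE replicate 3 for 28 (29.9%). All 3 EAE libraries were above all 3 naive libraries for 8 members, Oasl1, Ifitm3, Bst2, Usp18, Trim25, Parp9, Ifi27 and Lgals3bp, against a background of 12.2%, and below them for 0 (11.8%).

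**Figure D1:**
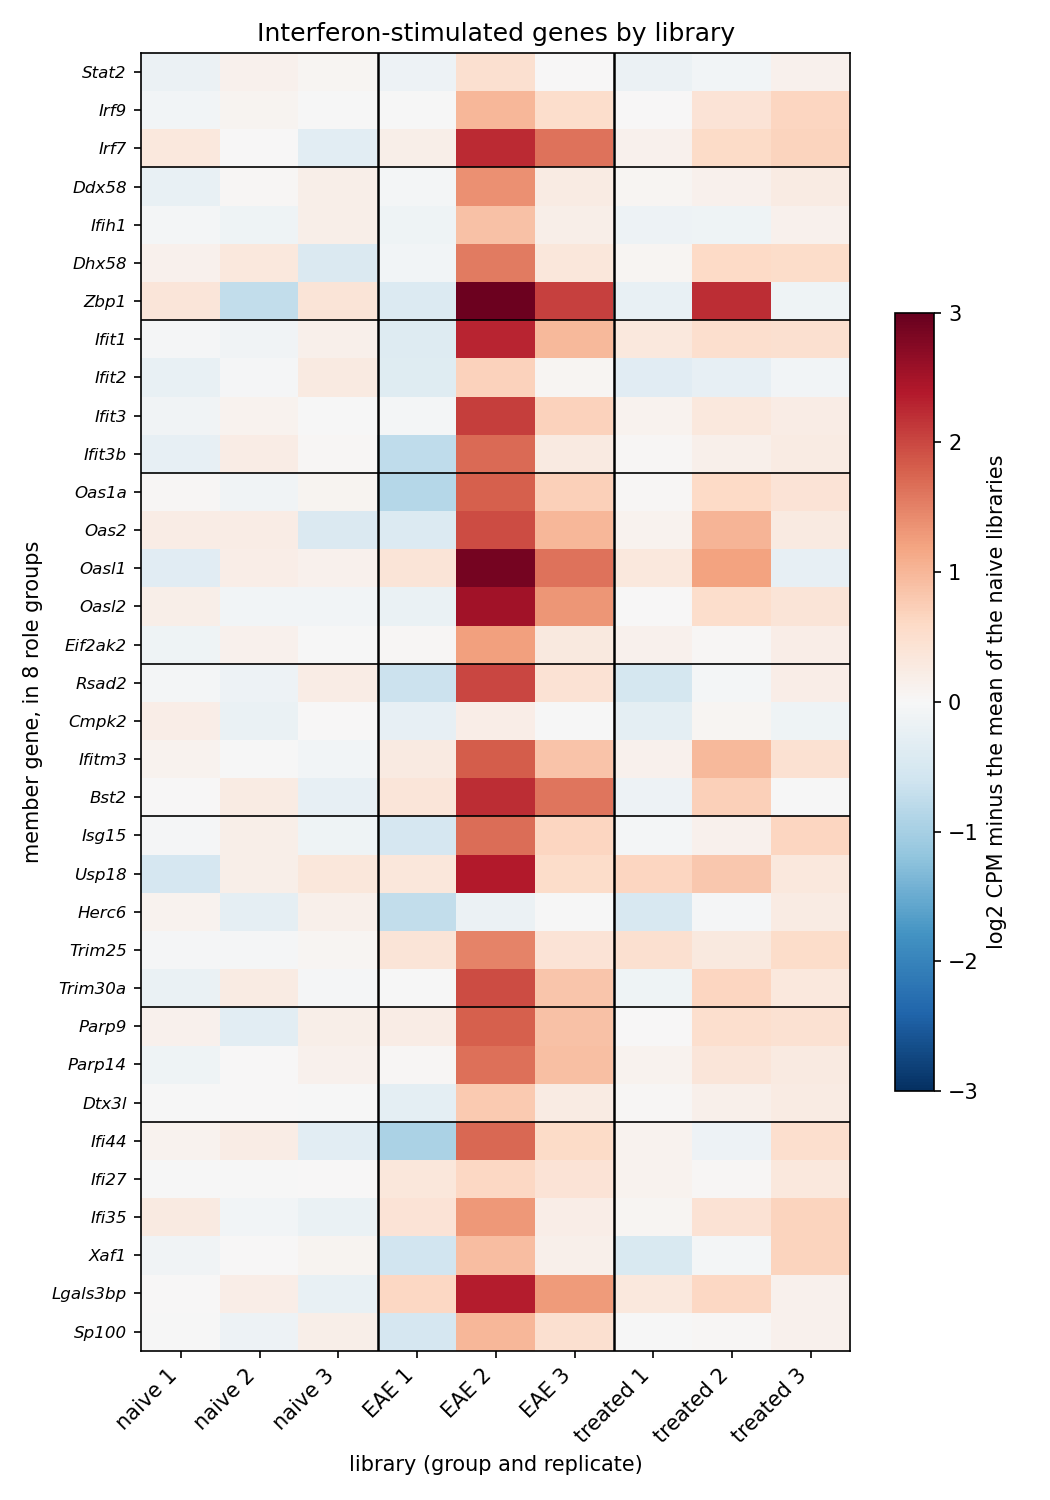
Each row is 1 of the 34 tested genes in 8 role groups and each column 1 library; the colour gives log2 CPM minus the mean of the naive libraries. EAE replicate 2 is the highest column for 33 genes and EAE replicate 3 the second highest for 18, while EAE replicate 1 lies near the naive libraries.

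Leaving out 1 EAE library changed the counts. Without EAE replicate 1, when Oas3 also entered the test, the median in EAE against naive was 1.30, 29 of 35 genes had an unadjusted p under 0.05 (14.3% of all genes) and 6 passed edgeR's test as higher (background 1.24%). These were Irf7 (log2 fold change 1.96, edgeR adjusted p = 0.0140), Bst2 (1.95, 0.0209), Oasl2 (2.04, 0.0235), Parp14 (1.34, 0.0238), Lgals3bp (1.91, 0.0279) and Ifit1 (1.80, 0.0414). Without EAE replicate 2 the median was 0.29, 25 of 34 genes were above 0, 5 had an unadjusted p under 0.05 (11.7% of all genes) and none passed the edgeR adjustment (background 0.143% higher). Without treated replicate 3, a library of neither group, Ifi27 passed (0.46, edgeR adjusted p = 0.0459, with 0.942% of genes called higher).

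**Figure D2:**
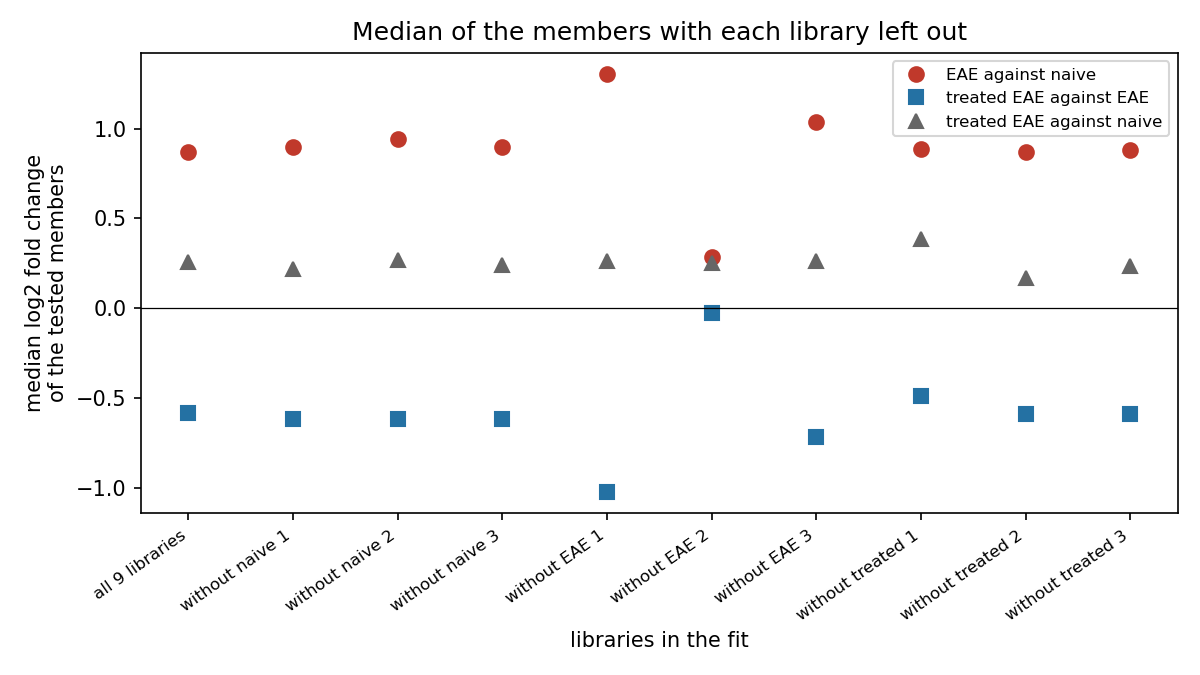
Median log2 fold change of the tested genes in each comparison, with all 9 libraries and with each library left out in turn. In EAE against naive it runs from 0.29 without EAE replicate 2 to 1.30 without EAE replicate 1, and in treated EAE against EAE from -0.03 to -1.02 with the same 2 libraries left out.

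In treated EAE against untreated EAE the median log2 fold change was -0.58, with 33 of 34 genes below 0 and Herc6 above it, where all genes had a median of 0.00 and 50.6% above 0. No member passed edgeR's test, with a background of 0.22% in either direction, 0.0912% higher and 0.129% lower, and the lowest edgeR adjusted p was 0.189, for Bst2. At an unadjusted p under 0.05, 0 were higher and 7 lower, Bst2, Lgals3bp, Ifi27, Irf7, Oasl1, Parp14 and Oasl2, against 7.43% of genes higher and 7.65% lower. DESeq2 called 1 lower, Bst2 (DESeq2 adjusted p = 0.0291), with 2% of genes called lower. All treated libraries were below all EAE libraries for 2 members, Ifi27 and Lgals3bp (background 9.28%), and above them for 0 (9.93%). Without EAE replicate 2 the median was -0.03, with 16 genes above 0 and 18 below, where 49.6% of all genes were below. Without EAE replicate 1 it was -1.02, with 34 of 35 genes below 0 (50.5% of all genes), 26 genes at an unadjusted p under 0.05 (13.3% of all genes) and none past the edgeR adjustment. This comparison shares the 3 EAE libraries with the one against naive, so a library that is high in EAE enters both with opposite sign.

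Treated EAE was also set against naive cortex. The median was 0.26, with 28 of 34 genes above 0, where 53.6% of all genes were. No member passed edgeR's test (background 0%, lowest edgeR adjusted p = 0.9999), 0 had an unadjusted p under 0.05 (1.71% of all genes) and DESeq2 called 0 (0.0109% of genes higher). The median difference from the naive mean was 0.04, 0.34 and 0.26 in treated replicates 1 to 3, which were above every naive library for 8, 21 and 23 members, against 25.8%, 25.5% and 30% of all genes. All treated libraries were above all naive libraries for 5 members, Ifit1, Ifitm3, Trim25, Dtx3l and Ifi27 (background 3.51%), and below them for 0 (2.74%).

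**Figure D3:**
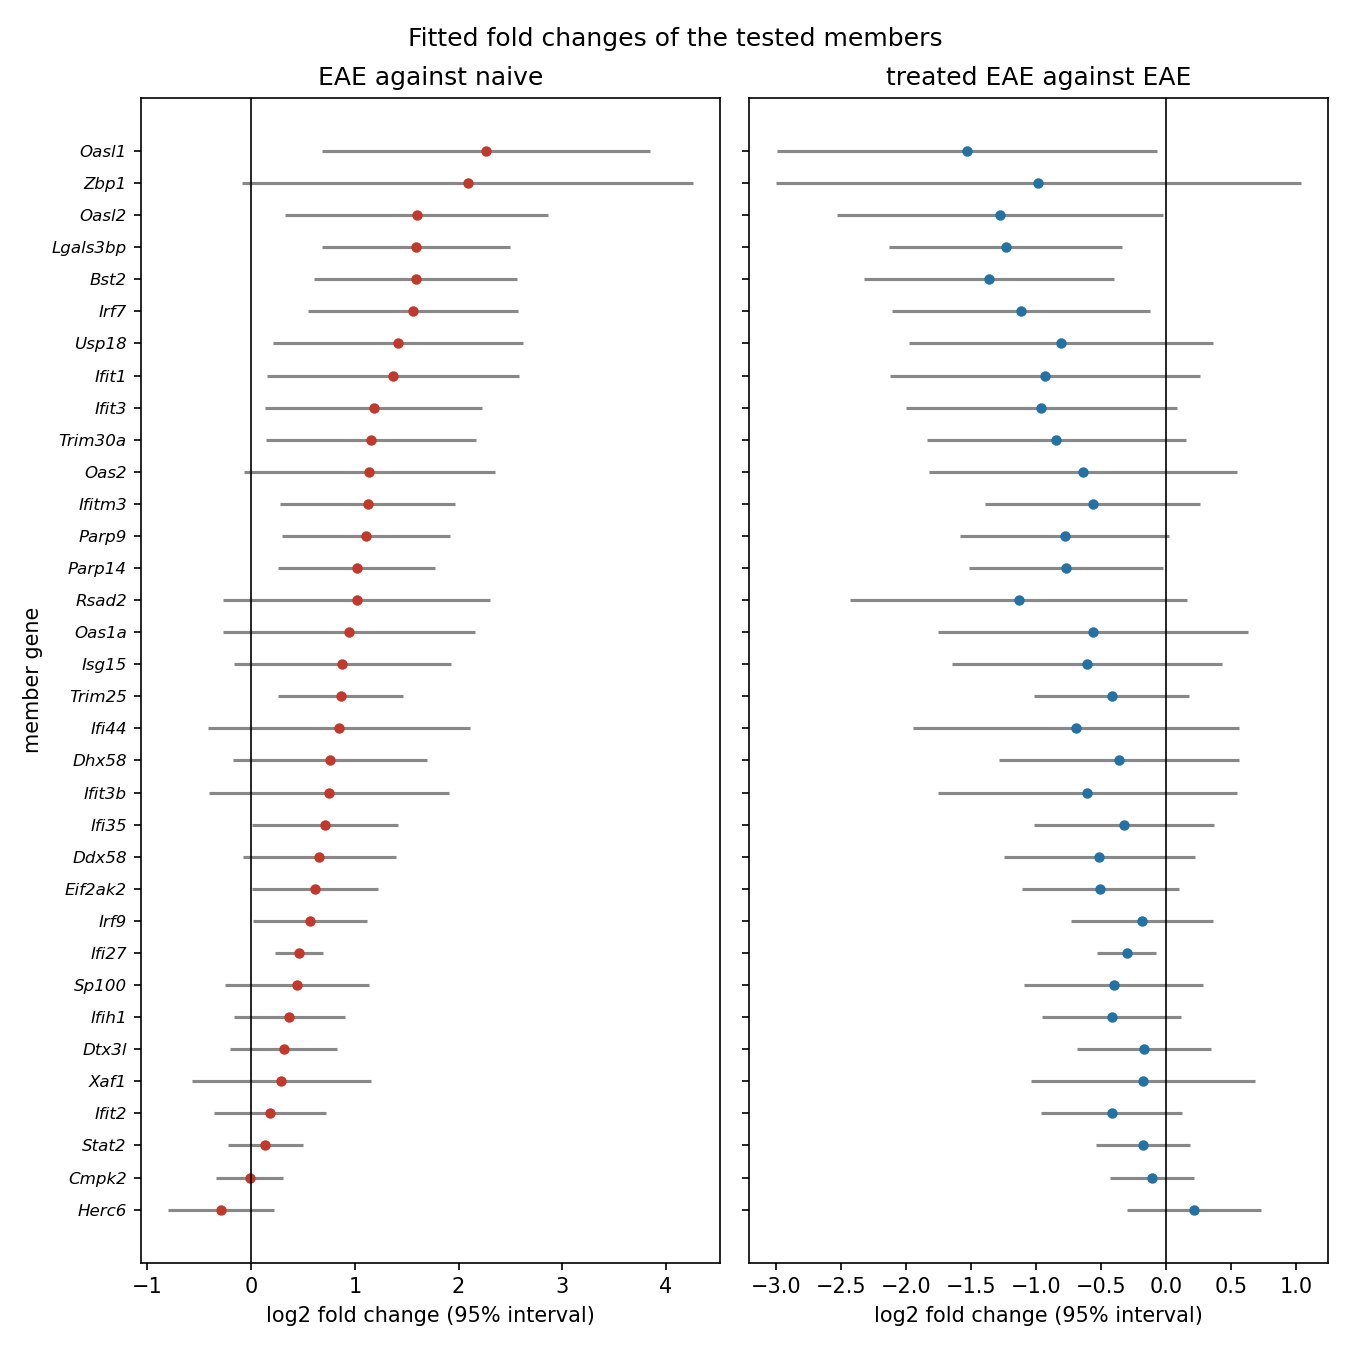
Fitted log2 fold changes of the 34 tested genes with 95% intervals, in EAE against naive (left) and treated EAE against EAE (right), ordered by the left panel. Of the 34, 32 points are above 0 on the left and 33 below 0 on the right, and none passed edgeR's adjusted test in either comparison.

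Positions are those of RefSeq on GRCm38.p6, the assembly named mm10 in the submitters' processing notes. Among the signalling factors, Irf7 (chr7:141263183-141266499), the transcription factor that amplifies type I interferon production, was at 3.02, 2.42 and 1.93 CPM in naive replicates 1 to 3, at 2.73, 11.6 and 7.57 CPM in EAE and at 2.64, 3.63 and 3.86 CPM in treated EAE. EAE replicates 2 and 3 were above all other libraries, while EAE replicate 1 lay among the naive ones. The log2 fold change was 1.56 (edgeR adjusted p = 0.132, SE 0.45) in EAE against naive and -1.11 (edgeR adjusted p = 0.281, SE 0.44) in treated EAE against EAE. Irf9 (chr14:55603985-55610030), the DNA-binding subunit of ISGF3, was at 11.3, 12.8 and 11.9 CPM in naive, 11.9, 24.1 and 17.4 CPM in EAE and 12.2, 16.0 and 18.9 CPM in treated EAE. Its treated replicate 3 was above EAE replicate 3, and the log2 fold changes were 0.57 (edgeR adjusted p = 0.289, SE 0.24) and -0.18 (edgeR adjusted p = 0.774, SE 0.24). Stat2 (chr10:128270498-128292853), a further subunit of the same factor, was at 35.7, 44.1 and 42.1 CPM in naive, 36.4, 56.7 and 40.8 CPM in EAE and 35.9, 38.5 and 44.0 CPM in treated EAE. EAE replicate 2 was above the naive range and the other 5 diseased libraries were not, and the log2 fold change was 0.14 (edgeR adjusted p = 0.743, SE 0.16).

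Among the 4 sensors of foreign nucleic acid, all had a log2 fold change above 0 in EAE against naive, with a median of 0.71, and none had an unadjusted p under 0.05. Ddx58 (chr4:40203777-40239825), which encodes the RNA sensor RIG-I, was at 5.18, 6.12 and 6.86 CPM in naive, 5.74, 15.7 and 7.19 CPM in EAE and 6.30, 6.59 and 7.17 CPM in treated EAE. Ifih1 (chr2:62595618-62646255), which encodes the sensor of long double-stranded RNA MDA5, was at 5.79, 5.5 and 6.82 CPM, 5.48, 11.1 and 6.77 CPM, and 5.42, 5.53 and 6.58 CPM in the same order. For both, EAE replicate 2 stood alone above a narrow range of the other 8 libraries. Zbp1 (chr2:173206612-173218959), a sensor of Z-form nucleic acid that can trigger cell death, was low: 0.536, 0.220 and 0.551 CPM in naive, 0.292, 3.52 and 1.88 CPM in EAE and 0.342, 2.11 and 0.367 CPM in treated EAE. Here treated replicate 2 was above EAE replicate 3, so the groups overlapped, and the log2 fold change of 2.09 (edgeR adjusted p = 0.326, SE 0.96) had a 95% interval from -0.09 to 4.26. Dhx58, a regulator of the 2 RNA sensors that is itself a helicase of their family, had a log2 fold change of 0.76 (edgeR adjusted p = 0.413, SE 0.42).

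The IFIT proteins bind foreign RNA and block its translation. Ifit3 (chr19:34583119-34588982) was at 9.95, 11.6 and 10.5 CPM in naive, 10.2, 45 and 17.2 CPM in EAE and 11.6, 13.3 and 12.4 CPM in treated EAE. Its naive and treated libraries together lay within a narrow band in which EAE replicate 1 also fell, and the log2 fold change was 1.18 (edgeR adjusted p = 0.252, SE 0.46). Ifit1 (chr19:34640889-34650009) was at 2.30, 2.20 and 2.65 CPM in naive, 1.82, 11.8 and 4.76 CPM in EAE and 2.96, 3.39 and 3.34 CPM in treated EAE. EAE replicate 1 was the lowest of the 9 libraries and EAE replicate 2 the highest, and the 3 treated libraries were all above the naive ones. The log2 fold change of Ifit1 was 1.36 (edgeR adjusted p = 0.252, SE 0.54) in EAE against naive and 0.44 (edgeR adjusted p = 1.000, SE 0.54) in treated EAE against naive. Ifit2 (chr19:34550550-34576534) was at 11.7, 13.2 and 16.3 CPM, 10.6, 22.0 and 14.2 CPM, and 10.7, 11.6 and 12.8 CPM, with a log2 fold change of 0.19 (edgeR adjusted p = 0.764, SE 0.24). Ifit3b had a log2 fold change of 0.75 (edgeR adjusted p = 0.525, SE 0.51). Its transcript is 97.8% identical to that of Ifit3 over 1700 aligned bases, so reads of the 2 genes may have been split between them and both values are uncertain.

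Several members of the OAS family, though not all, make short oligoadenylates that switch on RNase L. PKR, encoded by Eif2ak2, halts translation on sensing double-stranded RNA. All 5 tested genes of this group had a log2 fold change above 0 in EAE, with a median of 1.14. Oasl2 (chr5:114896926-114912245), an OAS-like gene, was at 4.54, 3.78 and 3.79 CPM in naive, 3.47, 23.2 and 10.1 CPM in EAE and 4.08, 5.79 and 5.29 CPM in treated EAE. EAE replicate 1 was the lowest library of all, and the log2 fold changes were 1.60 (edgeR adjusted p = 0.209, SE 0.56) and, in treated EAE against EAE, -1.28 (edgeR adjusted p = 0.322, SE 0.55). Eif2ak2 (chr17:78850504-78882572) was at 10.5, 12.6 and 11.4 CPM, 11.8, 27.2 and 14.1 CPM, and 12.5, 11.8 and 13.1 CPM, with a log2 fold change of 0.62 (edgeR adjusted p = 0.297, SE 0.27). Oasl1 (chr5:114923143-114937911), whose product represses Irf7 translation, was the least abundant tested member per length. It was at 0.134, 0.220 and 0.207 CPM in naive, 0.260, 1.71 and 0.695 CPM in EAE and 0.244, 0.498 and 0.147 CPM in treated EAE. The EAE and naive groups did not overlap, which rested on 8 counts in EAE replicate 1 against 6 in each naive library. The log2 fold change of Oasl1, 2.27, was the largest of the 34 (edgeR adjusted p = 0.153, SE 0.71). Oas1a and Oas2 had 0.94 (SE 0.54) and 1.14 (SE 0.54).

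Members that block virus entry, replication and release ranged from a log2 fold change of -0.02 to 1.58 in EAE against naive. Bst2 (chr8:71534255-71537472), which encodes tetherin and holds budding virions at the cell surface, was at 2.82, 3.30 and 2.34 CPM in naive, 3.63, 13.2 and 8.58 CPM in EAE and 2.49, 4.60 and 2.76 CPM in treated EAE. Every EAE library was above every naive one, and treated replicate 2 was above EAE replicate 1. The log2 fold change was 1.58 (edgeR adjusted p = 0.115, SE 0.43) in EAE against naive and -1.36 (edgeR adjusted p = 0.189, SE 0.43) in treated EAE against EAE. Ifitm3 (chr7:141009590-141010744), a membrane protein that hinders virus fusion in endosomes, was at 6.91, 6.42 and 6.10 CPM in naive, 7.76, 23 and 11.7 CPM in EAE and 7.06, 12.7 and 8.86 CPM in treated EAE. Treated replicate 2 was above EAE replicate 3, and the log2 fold changes were 1.12 (edgeR adjusted p = 0.181, SE 0.37) and -0.56 (edgeR adjusted p = 0.519, SE 0.36). Cmpk2 (chr12:26469117-26479837), a mitochondrial nucleotide kinase, was at 26.6, 20.2 and 23.5 CPM in naive, 19.5, 27 and 23.2 CPM in EAE and 19.1, 24.1 and 21.4 CPM in treated EAE. The 3 groups overlapped throughout, and the log2 fold change was -0.02 with a 95% interval from -0.34 to 0.31. Rsad2, which encodes viperin and lies beside Cmpk2 on chromosome 12, had a log2 fold change of 1.02 (edgeR adjusted p = 0.425, SE 0.57).

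ISG15 is a ubiquitin-like protein that is joined to other proteins in interferon-treated cells. Isg15 (chr4:156199424-156200818) was at 1.99, 2.31 and 1.86 CPM in naive, 1.43, 6.66 and 3.23 CPM in EAE and 1.98, 2.25 and 3.23 CPM in treated EAE. EAE replicate 1 was the lowest library, and the log2 fold change was 0.88 (edgeR adjusted p = 0.393, SE 0.47). Trim25 (chr11:88999403-89020294), a ubiquitin ligase that acts on RIG-I, was at 7.08, 7.04 and 7.51 CPM in naive, 9.48, 20.2 and 9.62 CPM in EAE and 10.1, 8.89 and 10.5 CPM in treated EAE. Both EAE and treated libraries were above all naive ones, with log2 fold changes of 0.86 (edgeR adjusted p = 0.154, SE 0.27) and 0.44 (edgeR adjusted p = 1.000, SE 0.27) against naive. Herc6 (chr6:57580992-57665136), the ligase that joins ISG15 to proteins in mouse, was at 21.2, 16.1 and 21.9 CPM in naive, 11.8, 17.2 and 19.5 CPM in EAE and 14.1, 19.1 and 23.1 CPM in treated EAE. It had the lowest log2 fold change of the list in EAE against naive, -0.29 (edgeR adjusted p = 0.587, SE 0.23), and the only one above 0 in treated EAE against EAE, 0.21 (SE 0.23). Usp18, the protease that removes ISG15, and Trim30a had log2 fold changes of 1.41 (edgeR adjusted p = 0.233, SE 0.53) and 1.16 (edgeR adjusted p = 0.243, SE 0.45) in EAE against naive.

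**Figure D4:**
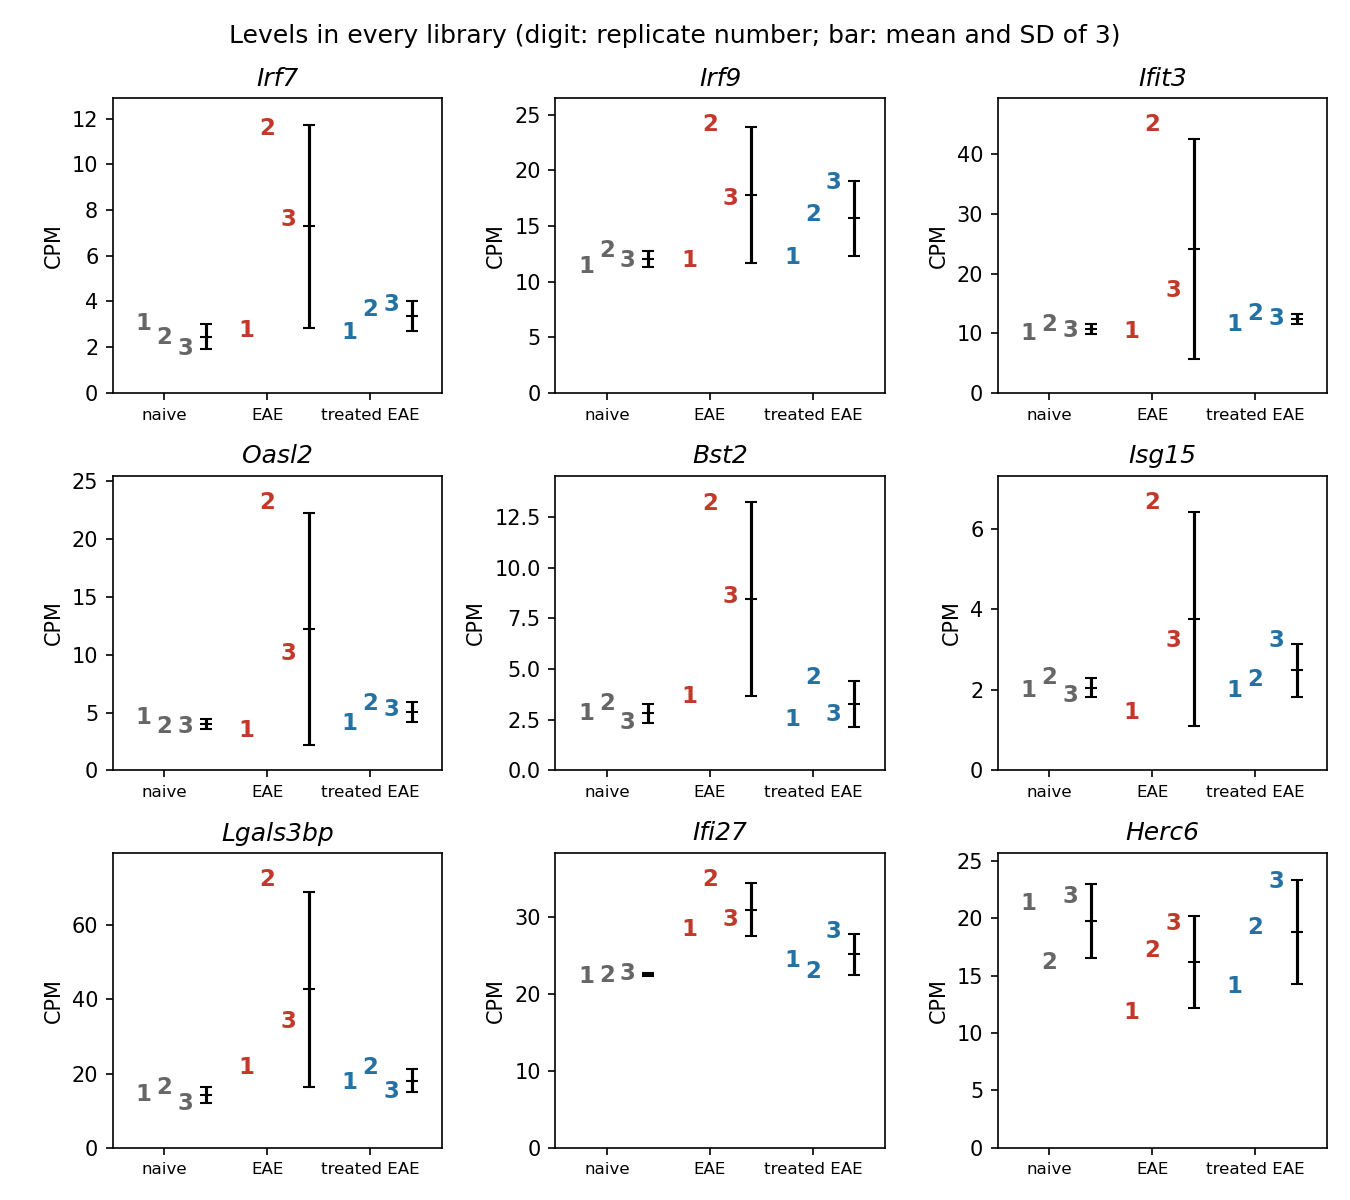
CPM of 9 genes in every library, by group; digits mark the replicate and bars the mean and SD of 3. In Irf7, Ifit3, Oasl2 and Bst2 EAE replicate 2 is the highest point and EAE replicate 1 is near the naive libraries, while Herc6 shows no such order.

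PARP9 and DTX3L form a complex of an ADP-ribosyltransferase-like protein and a ubiquitin ligase, and PARP14 is a further member of that enzyme family. Parp14 (chr16:35831892-35871518) was at 4.76, 5.24 and 5.75 CPM in naive, 5.35, 16.6 and 9.90 CPM in EAE and 5.64, 6.76 and 6.28 CPM in treated EAE, with a log2 fold change of 1.02 (edgeR adjusted p = 0.176, SE 0.33). Parp9 (chr16:35938470-35972621) was at 3.75, 2.75 and 3.86 CPM, 3.99, 12 and 6.32 CPM, and 3.47, 4.86 and 4.70 CPM, with a log2 fold change of 1.1 (edgeR adjusted p = 0.171, SE 0.36). Dtx3l (chr16:35926515-35939027) was at 6.50, 6.56 and 6.48 CPM, 5.29, 11.3 and 7.75 CPM, and 6.64, 7.23 and 7.75 CPM, with a log2 fold change of 0.32 (edgeR adjusted p = 0.552, SE 0.23). For the 3 genes EAE replicate 2 was the highest library, and for Dtx3l EAE replicate 1 the lowest. Parp9 and Dtx3l overlap by 458 exon bases on opposite strands, 9.40% and 8% of their exons, so reads there cannot be told apart without a stated strand setting.

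Of the 6 other members, Lgals3bp and Ifi27 had the smallest p in EAE against naive. Lgals3bp (chr11:118392747-118401959), a secreted glycoprotein that binds galectin, was at 14.3, 16.3 and 12 CPM in naive, 21.7, 72.2 and 34.2 CPM in EAE and 17.6, 21.6 and 15.3 CPM in treated EAE. The EAE libraries were above all the others, EAE replicate 1 by the narrowest margin, and the log2 fold changes were 1.59 (edgeR adjusted p = 0.0995, SE 0.40) and -1.23 (edgeR adjusted p = 0.203, SE 0.39). Ifi27 (chr12:103434189-103440245), a small membrane protein, was at 22.3, 22.4 and 22.7 CPM in naive, 28.3, 34.8 and 29.7 CPM in EAE and 24.3, 22.9 and 28.1 CPM in treated EAE. It had a tight naive group and no overlap of EAE with either of the others, with log2 fold changes of 0.46 (edgeR adjusted p = 0.0663, SE 0.10) and -0.30 (edgeR adjusted p = 0.213, SE 0.10). Xaf1, whose product binds the apoptosis inhibitor XIAP, Sp100, a component of PML nuclear bodies, Ifi35 and Ifi44 had log2 fold changes of 0.29, 0.44, 0.71 and 0.85 in EAE against naive, with edgeR adjusted p of 0.767, 0.531, 0.298 and 0.512. In Xaf1 treated replicate 3, at 10.8 CPM, was second to EAE replicate 2, at 12.9 CPM.

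Per kilobase of exon and averaged over the 9 libraries, the most abundant members were Ifi27 (17.8 CPM per kb), Ifitm3 (14.8), Ifit3 (9.02), Lgals3bp (8.78) and Stat2 (7.02). The least abundant were Zbp1 (0.309 CPM per kb), Ifi44 (0.216), Oasl1 (0.175) and Oas3 (0.0424).

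Averaged over the members of a role group, the difference in log2 CPM from the naive mean in EAE replicate 2 ran from 1.24 for the signalling factors to 2.07 for the OAS family with PKR. In EAE replicate 3 it ran from 0.49 for the ISG15 and ubiquitin group to 0.99 for the OAS family with PKR. In EAE replicate 1 no group was above 0, and the IFIT family was lowest, at -0.39. All 8 groups had the EAE order 2, 3, 1.

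Upstream of these genes, transcripts of the interferons themselves were scarcely counted. Of 18 type I interferon genes in the table, 11 were at 0 in all 9 libraries, and the highest count of any in 1 library was 3. Ifnb1, which encodes interferon beta, had 2 counts in naive replicate 1 and 0 elsewhere. Counts over the 18 genes summed to 6, 0 and 2 in naive, 1, 2 and 3 in EAE and 5, 0 and 7 in treated EAE, so no difference was detectable at this depth. Ifng, the type II interferon, had 2 counts in each of EAE replicates 1 and 2 and 0 elsewhere.

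No receptor chain or kinase passed edgeR's test, where 0.987% of all genes did in EAE against naive and 0.22% in treated EAE against EAE. Ifnar1 was at 60.8, 68.3 and 66.7 CPM in naive, 54.8, 65.0 and 60.7 CPM in EAE and 62.5, 57.0 and 63.8 CPM in treated EAE, with a log2 fold change of -0.12 in EAE against naive and a 95% interval from -0.30 to 0.07. Ifnar2 was at 17.2, 18.5 and 15.2 CPM, 17.2, 19.1 and 16.8 CPM, and 17.0, 17.8 and 16.8 CPM, with 0.06 and an interval from -0.15 to 0.28. Both groups of values overlapped. Jak1 was at 182, 174 and 180 CPM, 158, 152 and 166 CPM, and 199, 177 and 170 CPM, with all EAE libraries below the others and a log2 fold change of -0.17 (edgeR adjusted p = 0.288). Tyk2 was at 25.2, 29.6 and 30.4 CPM, 28.9, 29.9 and 30.2 CPM, and 30.2, 27.3 and 33.3 CPM, with 0.06 (edgeR adjusted p = 0.803). Ifngr1, a chain of the interferon gamma receptor, was at 13.6, 14.4 and 12 CPM in naive, 16.2, 23.7 and 17 CPM in EAE and 13.1, 15.2 and 14.6 CPM in treated EAE. All its EAE libraries were above the others, with a log2 fold change of 0.51 (edgeR adjusted p = 0.132, DESeq2 adjusted p = 0.0435) in EAE against naive and -0.41 (edgeR adjusted p = 0.239) in treated EAE against EAE. Jak2, a kinase of the same receptor, had -0.29 in treated EAE against EAE (edgeR adjusted p = 0.118, DESeq2 adjusted p = 0.0156).

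Of the 38 tested pathway genes, which cover receptors, kinases, inducers of interferon and negative regulators, 29 had a log2 fold change above 0 in EAE against naive, with a median of 0.27, and 10 were higher and 1 lower at an unadjusted p under 0.05 (9.42% and 6.97% of all genes). The 1 gene that passed edgeR's adjusted test was Tlr7, an endosomal sensor of single-stranded RNA, where 0.735% of all tested genes passed as higher. Tlr7 was at 3.31, 3.19 and 3.17 CPM in naive, 6.23, 13.1 and 7.68 CPM in EAE and 3.44, 3.63 and 3.16 CPM in treated EAE. Tlr7 rose in EAE, with a log2 fold change of 1.48 (edgeR adjusted p = 0.0334, SE 0.25), and EAE replicate 1 was also above all naive and treated libraries. The call was lost without any 1 of naive replicates 1, 2 or 3, EAE replicates 2 or 3 or treated replicate 2, and with only the 2 groups in the fit, at edgeR adjusted p from 0.0525 to 0.145. In treated EAE against EAE it was -1.40 (edgeR adjusted p = 0.0727, SE 0.25, DESeq2 adjusted p = 6.52e-05). There 0 pathway genes passed edgeR's test (0.22% of all genes), with 3 lower by DESeq2 (2% of all genes). At an unadjusted p under 0.05, 1 pathway gene was higher and 6 were lower. Of all genes 7.43% were higher, 7.65% lower and 15.1% in either direction.

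A further 67 interferon-induced genes outside the list were also chosen with earlier results of these data known. Among these 67, 63 were above 0 in EAE against naive, with a median of 0.64. Of these, 2 rose and 0 fell by edgeR (background 0.735% and 0.252%), and 28 were higher and 0 lower at an unadjusted p under 0.05 (background 9.42% and 6.97%). Tent5a, a poly(A) polymerase, was at 4.18, 4.77 and 4.76 CPM in naive, 7.89, 8.25 and 10.3 CPM in EAE and 4.83, 4.81 and 5.44 CPM in treated EAE, a rise of 0.95 (edgeR adjusted p = 0.0280, SE 0.15). Bst1, a surface enzyme of myeloid and stromal cells, was at 0.134, 0.11 and 0.103 CPM, 0.811, 1.49 and 1.53 CPM, and 0.318, 1.11 and 0.367 CPM, a rise of 3.40 (edgeR adjusted p = 0.0334, SE 0.59). Both genes had all EAE libraries above all naive ones with EAE replicate 3 highest, and both calls were lost without any 1 of the naive libraries or of EAE replicates 2 and 3, at edgeR adjusted p from 0.0707 to 0.149. In treated EAE against EAE 60 of the 67 were below 0, with a median of -0.41, 0 passed edgeR's test (0.22% of all genes), 0 were higher and 15 lower at an unadjusted p under 0.05 (7.43% and 7.65% of all genes), and DESeq2 called 5 lower (2% of all genes).

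Genes induced mainly by interferon gamma gave a mixed picture in EAE against naive. Of 19 tested, 15 were above 0, with a median of 0.78, and 0 passed edgeR's test (0.987% of all genes). At an unadjusted p under 0.05, 6 were higher and 1 lower (9.42% and 6.97% of all genes), and DESeq2 called 2 higher and 1 lower (3.75% and 1.84%). Gbp6, a guanylate-binding protein, was at 2.5, 2.16 and 3.45 CPM in naive, 2.56, 14.8 and 13.6 CPM in EAE and 2.73, 4.34 and 1.91 CPM in treated EAE, with a log2 fold change of 1.93 (edgeR adjusted p = 0.156, SE 0.59). Gbp10 was at 0.693, 0.623 and 0.896 CPM, 0.454, 3.56 and 6.88 CPM, and 0.733, 1.26 and 0.367 CPM, with 2.29 (edgeR adjusted p = 0.207, SE 0.80). For both, EAE replicates 2 and 3 were above all other libraries and EAE replicate 1 was not above the naive range. Gbp4 had the other direction, at 13.5, 8.76 and 12.2 CPM in naive, 3.18, 6.92 and 7.40 CPM in EAE and 4.25, 5.64 and 7.09 CPM in treated EAE, with -0.98 (edgeR adjusted p = 0.170, SE 0.32). In treated EAE against EAE all 19 genes were below 0, with a median of -0.67, where 50.6% of all genes were above 0. There 0 passed edgeR's test (0.22% of all genes). At an unadjusted p under 0.05, 0 were higher and 3 lower (7.43% and 7.65% of all genes). DESeq2 called 1 lower, Gbp6 (DESeq2 adjusted p = 0.0211), with 2% of genes called lower.

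Markers of several cell types moved with the libraries in which the interferon-stimulated genes were high. Summed over 10 microglia markers, the level was 324.8 to 390 CPM in naive, 328.3, 604.6 and 406.2 CPM in EAE replicates 1 to 3 and 361 to 430.6 CPM in treated EAE. Over 10 markers of monocytes and macrophages it was 57.5 to 70.7 CPM in naive, 95.2, 173.4 and 245.5 CPM in EAE and 74.6 to 103.6 CPM in treated EAE. The sum was highest in EAE replicate 3 and not replicate 2, but the list was split. Ly6c2, Ccr2, Lyz2, Ms4a7, Chil3 and Fn1 were highest in EAE replicate 3, and Mrc1, Cd163, F13a1 and Plac8 in EAE replicate 2. All 10 had a log2 fold change above 0 in EAE against naive, with a median of 2.31. Of these, 1 passed edgeR's test, Fn1 (0.96, edgeR adjusted p = 0.0398), which other cells make as well. Of all tested genes 0.735% passed as higher. The 7 astrocyte markers summed to 4385 to 4904 CPM in naive, 4218, 6164 and 5163 CPM in EAE and 3779 to 5365 CPM in treated EAE, and the 8 endothelial markers to 234.7 to 238.6 CPM, 232.2, 331.8 and 274.5 CPM, and 224.5 to 329.2 CPM. The 7 meningeal fibroblast markers summed to 55.6 to 90.1 CPM in naive, 159.2, 237.2 and 88.2 CPM in EAE and 36.4 to 158.9 CPM in treated EAE, and 7 of 7 were above 0 in EAE against naive, with a median of 0.96. The microglia, monocyte and macrophage, astrocyte and endothelial lists share with the member genes a higher value in EAE replicates 2 and 3 than in EAE replicate 1.

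Lymphocyte and neutrophil markers were low. The 8 T cell markers in the table summed to 2.65 to 21.1 CPM in naive, 4 to 17.1 CPM in EAE and 4.01 to 11.9 CPM in treated EAE. Cd4 was at 0.591 to 19.0 CPM, highest in naive replicate 1, and Lck at 0.514 to 2.56 CPM. Cd3d, Cd3e and Cd3g, of the T cell receptor complex, were at or under 0.259 CPM in every library. For Cd3e, Cd8a, Cd2 and Cd28 every EAE library was above every naive one, and EAE and naive overlapped for Cd3d, Cd3g, Cd4 and Lck. Counts of Cd3e, Cd8a, Cd2 and Cd28 were low, and only Cd28 of them passed the filter on low counts. Among the 3 tested T cell markers the order held for 1, against 12.2% of all tested genes. The 8 neutrophil markers summed to 0.11 to 0.241 CPM in naive, 0.811, 0.938 and 2.99 in EAE and 0.32 to 1.23 in treated EAE. Ly6g was at 0 in all libraries. The 6 B cell markers summed to 4.53 CPM in EAE replicate 2 and to 1.07 to 2.07 CPM elsewhere, with Jchain at 3.30 CPM in EAE replicate 2. For plasmacytoid dendritic cells, Ccr9 was at 0.103 to 0.257 CPM in naive, 0.356 to 0.591 in EAE and 0.22 to 0.366 in treated EAE. Siglech, which microglia also express, was 13.5 to 22.8 CPM. Of the 4 tested markers of plasmacytoid dendritic cells, 1 had a log2 fold change above 0 in EAE against naive, Ccr9. The 3 below were Siglech, Cox6a2 and Pacsin1. Pacsin1, at 368 to 450.6 CPM, made up most of the list's summed level of 395.7 to 474.8 CPM. How far these genes reflect plasmacytoid dendritic cells in cortex was not tested. The part of these cell types in the differences between libraries was not tested.

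**Figure D5:**
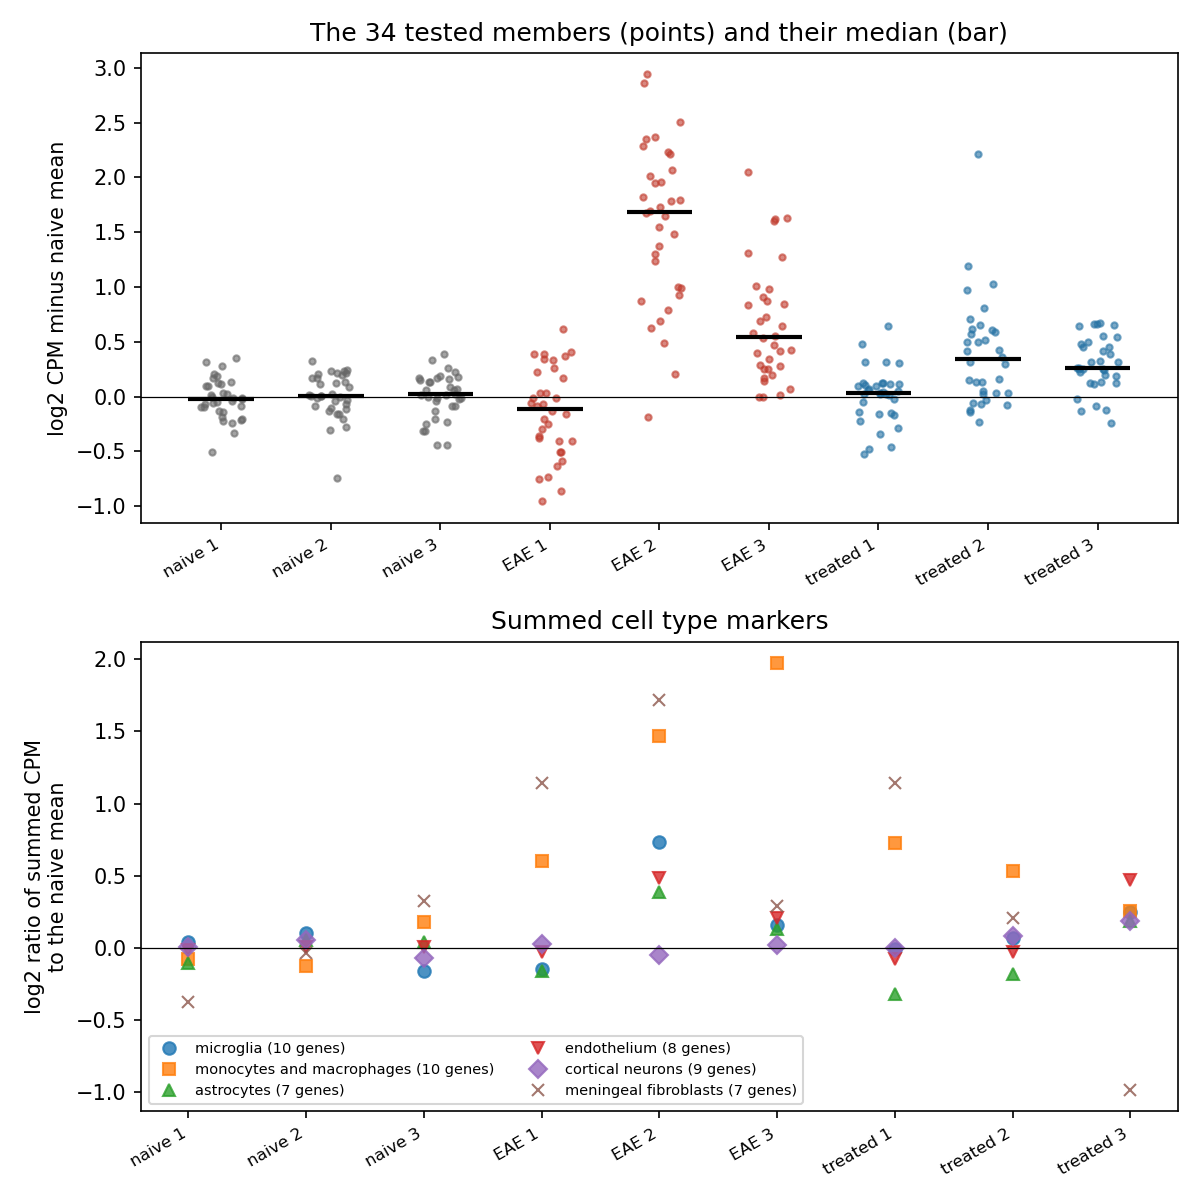
Upper panel: difference in log2 CPM from the naive mean for the 34 tested genes (points) with their median (bar) in each library. Lower panel: log2 ratio of the summed CPM of 6 cell type marker lists to the naive mean; microglia, astrocyte and endothelial lists are highest in EAE replicate 2 and the monocyte and macrophage list in EAE replicate 3.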

How the data were processed

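Poly(A) RNA of 9 mouse cortex samples was sequenced, per the labels' protocols. Per the series' design text, FastQC and fastp came before alignment by Hisat2, then quantification by bowtie2 and calls by DESeq2. FastQC 0.11.8 and mm10 are named in the submitters' processing notes. No source used here states the annotation or strand setting. The authors deposited raw counts per gene symbol, and 9 columns that match no sample were not used. Genes at a count of 2 were 3.80 to 4.43 times as many as at 1, so a count may be 1 of 2 mates.

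The test was that of edgeR 4.0.16 under R 4.3.3 (filterByExpr, TMM, robust glmQLFit, glmQLFTest), with group as the only factor and 6 residual degrees of freedom, adjusted by Benjamini and Hochberg, threshold 0.05. DESeq2 1.42.0 was an alternative, as were other scalings, no filter, fewer samples and a replicate block. The fit was tested on simulated data. The standard error is the absolute log2 fold change over the square root of F. Library differences used log2 CPM with a prior count of 2. Chi-square per degree of freedom between libraries of a group was 16.7 to 57.2, so none was a copy.

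EAE and treated libraries of the same number deviated together from their groups' means (r = 0.17, 0.24 and 0.24). Those of unlike number had r from -0.16 to -0.04. No label states a pairing, and whether the samples were paired cannot be told from these values. The values given are from the fit without pairs, and the fit with the replicate block is an alternative. The same correlations with naive libraries ran from -0.25 to 0.36, and those of unlike number from -0.31 to 0.35.

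Members and lists were chosen with earlier results of these data known. All members are named. Values in every library are given for the 2 most abundant and the 1 with the smallest p in EAE against naive of each role group, Stat2, Irf9, Irf7 and Isg15, the receptor genes named, other-list genes past the threshold and the 3 interferon gamma genes with the smallest p. One pathway gene of this rule is not reported here. Xaf1, Ifngr1, Jak2 and Fn1 were singled out after their values were seen. Exon lengths and overlaps are from GENCODE M21. Exons also overlap other genes in Irf9, Irf7, Dhx58, Oasl1, Eif2ak2, Usp18, Herc6 (13.7% of its exon bases), Parp14, Ifi35 (16.8%) and Sp100.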

Additional observations from a re-analysis of the deposited data

How the results depend on the processing

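In EAE against naive, edgeR called 0 member genes, and DESeq2 called 8. Leaving out 1 library gave 0 to 6, with 6 without EAE replicate 1 and 1 without treated replicate 3. In treated EAE against EAE DESeq2 called 1 and every edgeR setting 0, and in treated EAE against naive every setting gave 0. With the replicate block, 0 members passed in all 3 comparisons, and the medians were 0.69, -0.44 and 0.24. The median log2 fold change in EAE against naive ran from 0.287 (without EAE replicate 2) to 1.304 with 1 library left out, in treated EAE against EAE from -1.022 to -0.025 (without EAE replicate 2), and in treated EAE against naive from 0.167 to 0.386. Pooled over all settings, a member's sign differed from its main value in 9 of 509 fits in EAE against naive. It did so in 16 of 510 in treated EAE against EAE and 13 of 509 in treated EAE against naive. These changes were not spread evenly over the settings. Without EAE replicate 2, 25 members were above 0 and 9 below in EAE against naive, where the main fit had 32 and 2. In treated EAE against EAE that setting had 16 above and 18 below, where the main fit had 1 and 33. Pathway genes called in EAE against naive were 1, or 6 by DESeq2, 0 with only the 2 groups compared and 0 to 4 with 1 library left out. In treated EAE against EAE they were 0, or 3 by DESeq2, 1 with no filter and 0 to 1 with 1 library left out. Further interferon-induced genes called in EAE against naive were 2, or 14 by DESeq2, 6 with the replicate block and 0 to 8 with 1 library left out. In treated EAE against EAE they were 0, or 5 by DESeq2. Over all genes, 184 were called in EAE against naive (0.987%), 1042 by DESeq2 (5.59%) and 2 without naive replicate 1 (0.0106%). The share was 1.28% with the replicate block, 0.96% with only the 2 groups compared and 0.0106% to 1.37% with 1 library left out. In treated EAE against EAE edgeR called 0.22% of all genes and DESeq2 3.69%. There the share was 0.214% with no filter and 0.021% to 0.201% with 1 library left out. The cause of these shifts was not tested. Low counts limit Oas3, Oasl1, Zbp1 and the interferon genes.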
